A study of Mus musculus with 79 samples.

Results

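The NMDA receptor subunit genes were examined in bulk RNA sequencing data of the medial prefrontal cortex (mPFC) and the ventral hippocampus (vHipp) of 40 male mice. They are Grin1, Grin2a, Grin2b, Grin2c, Grin2d, Grin3a and Grin3b, the 7 genes among 55471 in the count table whose symbols name a subunit of this receptor. They were chosen because the receptor is the direct target of ketamine. The rule uses no measured value, but it was set with earlier results of these data known.

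The mice were wild-type CD-1 males, aged between 9 and 10 weeks at the start and older when tissue was taken. Control mice (CTRL) were group-housed. Mice of the chronic social defeat stress group (CSDS) were defeated daily over 21 days and returned to their group after each defeat. All of them lived in groups of 4 in a seminatural arena, the social box, and received 1 intraperitoneal injection of (R,S)-ketamine at 10 mg/kg or of saline. Tissue punches were taken 7 days after the injection, so the values describe a late state and not the hours after the drug. Each of the 4 groups (CTRL saline, CSDS saline, CTRL ketamine and CSDS ketamine) held 10 mice, and 79 libraries were analysed. These were 40 of the vHipp and 39 of the mPFC, where the ketamine-treated CSDS group had 9 because the sample labels hold no mPFC library of mouse 5. Social rank and social box are not in the labels, so each group mixes ranks. The study also shows mouse numbers with a treatment for some of its mice, and for part of them the treatment is not the one in the sample labels. This was not resolved, the groups here are those of the labels, and every ketamine comparison rests on them.

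The NMDA receptor is a glutamate-gated cation channel built from 4 subunits. GluN1, the product of Grin1, is needed in every receptor and binds the co-agonist glycine or D-serine, whereas the GluN2 subunits bind glutamate and set the kinetics and magnesium block of the channel. GluN2B predominates early in the forebrain and GluN2A joins it during maturation, GluN2C is found in cerebellar granule cells and in astrocytes of the forebrain, and GluN2D in interneurons. GluN3 subunits bind glycine and lower the calcium permeability of the receptors that hold them. Ketamine enters the open channel and blocks it at the pore loop, near an asparagine that the GluN1 and GluN2 subunits share.

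The coding sequence of that pore loop is printed for 6 of the genes because it is the stretch in which the subunits differ at the site of block. All 7 genes had the same position in the file and in GENCODE M21, both on GRCm38, and the stretch was read from GENCODE transcripts, 5′ to 3′ on the coding strand. The capitals mark the codon at the pore site.
Grin1: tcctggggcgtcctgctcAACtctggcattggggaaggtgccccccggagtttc
Grin2a: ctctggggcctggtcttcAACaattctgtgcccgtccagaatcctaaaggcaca
Grin2c: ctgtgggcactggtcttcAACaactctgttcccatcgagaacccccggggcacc
Grin2d: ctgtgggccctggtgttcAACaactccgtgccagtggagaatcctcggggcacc
Grin3a: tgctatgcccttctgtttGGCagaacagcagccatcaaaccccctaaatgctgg
Grin3b: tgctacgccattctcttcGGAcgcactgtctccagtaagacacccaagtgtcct

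The pore-site codon read AAC, for asparagine, in Grin1, Grin2a, Grin2c and Grin2d. It read GGC in Grin3a and GGA in Grin3b, both for glycine. The stretches of Grin2a and Grin2d were identical at 42 of 54 bases and encoded the same residue in 15 of 18 codons. Grin2c and Grin2d shared 45 bases and 17 residues, and Grin3a and Grin3b 32 bases and 12 residues. Grin1 shared 4 of 18 residues with each of Grin2a, Grin2c and Grin2d. The stretch lies in 1 coding exon of Grin2a, Grin2c, Grin2d, Grin3a and Grin3b and spans an exon junction in Grin1, at chr2:25297280-25297406 on the minus strand. The others are at chr16:9653528-9653581 (Grin2a, minus strand), chr11:115253830-115253883 (Grin2c, minus), chr7:45854360-45854413 (Grin2d, minus), chr4:49770551-49770604 (Grin3a, minus) and chr10:79974528-79974581 (Grin3b, plus). The genes themselves are protein coding and lie on GRCm38 at chr2:25291181-25319187 (Grin1), chr16:9567898-9995560 (Grin2a), chr6:135713233-136173511 (Grin2b), chr11:115249169-115267243 (Grin2c), chr7:45831883-45878378 (Grin2d), chr4:49661611-49845744 (Grin3a) and chr10:79970715-79977190 (Grin3b).

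Library totals ranged from 11726129 to 41767119 counts. Levels are given in CPM, the share of a gene in the TMM-scaled library total on the usual scale, and differences between groups as log2 fold changes (LFC). Grin1, Grin2a, Grin2b, Grin2c, Grin2d and Grin3a were detected in all 79 libraries, with at least 330 counts in each. Grin3b was detected in 78 libraries, at a median of 0.178 CPM in the mPFC and 0.223 CPM in the vHipp. Libraries stood apart in places. The vHipp library of mouse 11 (CSDS ketamine) had the lowest correlation with its region, the lowest summed excitatory neuron markers of the vHipp (1909 CPM against a median of 3490) and the highest astrocyte markers (4332 CPM against 1797). The mPFC library of mouse 1 (CSDS ketamine) had the lowest correlation in its region, and the vHipp library of mouse 9 (CSDS saline) held 700.3 CPM of choroid plexus markers, where the median was 22.4. Values that these 3 libraries moved by much are also given without them, a choice made after the data were seen.

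The markers of the labelled regions were in place. Of 9 hippocampal markers, 8 were higher in the vHipp and 1 in the mPFC (edgeR adjusted p under 0.05), and their sum ranged from 760 to 1447 CPM there and from 256 to 591 CPM in the mPFC. Of 10 neocortical layer markers, 7 were higher in the mPFC and 3 in the vHipp, with sums of 614 to 760 CPM in the mPFC and 344 to 509 CPM in the vHipp. Among all genes tested, 48.9% were called in this comparison, so the counts of called markers by themselves say little.

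Per kilobase of exon, the scale on which genes can be compared, Grin1 was the most abundant member. Its level was 63.7 ± 3.91 CPM per kb (SD, n = 39) in the mPFC and 63.7 ± 6.01 (n = 40) in the vHipp. Grin2b followed at 26.4 ± 3.94 CPM per kb in the mPFC and 30.6 ± 5.44 in the vHipp, and Grin2a at 12.5 ± 1.73 and 22.2 ± 3.42. The ranges of Grin1 and Grin2b did not overlap in either region, and Grin2b exceeded Grin2a in 39 of 39 mPFC and 39 of 40 vHipp libraries. The exception was mouse 9 in the vHipp.

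Grin2c came next at 11.0 ± 1.64 CPM per kb in the mPFC and 13.3 ± 4.00 in the vHipp. It was not cleanly separated from Grin2a, which was higher in 31 of 39 mPFC libraries and 38 of 40 vHipp libraries. Grin3a and Grin2d had 6.39 ± 0.694 and 4.02 ± 0.332 CPM per kb in the mPFC, where Grin3a was higher in 39 of 39 libraries. In the vHipp their order turned, with 3.84 ± 0.576 for Grin2d and 3.53 ± 1.13 for Grin3a, but the ranges overlapped and Grin2d was higher in only 26 of 40 libraries. Grin3b lay far below at 0.0604 CPM per kb in the mPFC and 0.0606 in the vHipp. Divided by the longest annotated transcript instead, Grin1 stood at 144.5 CPM per kb in the mPFC, since its longest transcript has 4276 bases and its merged exons 9700, and Grin3a lay above Grin2d in both regions.

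**Figure D1:**
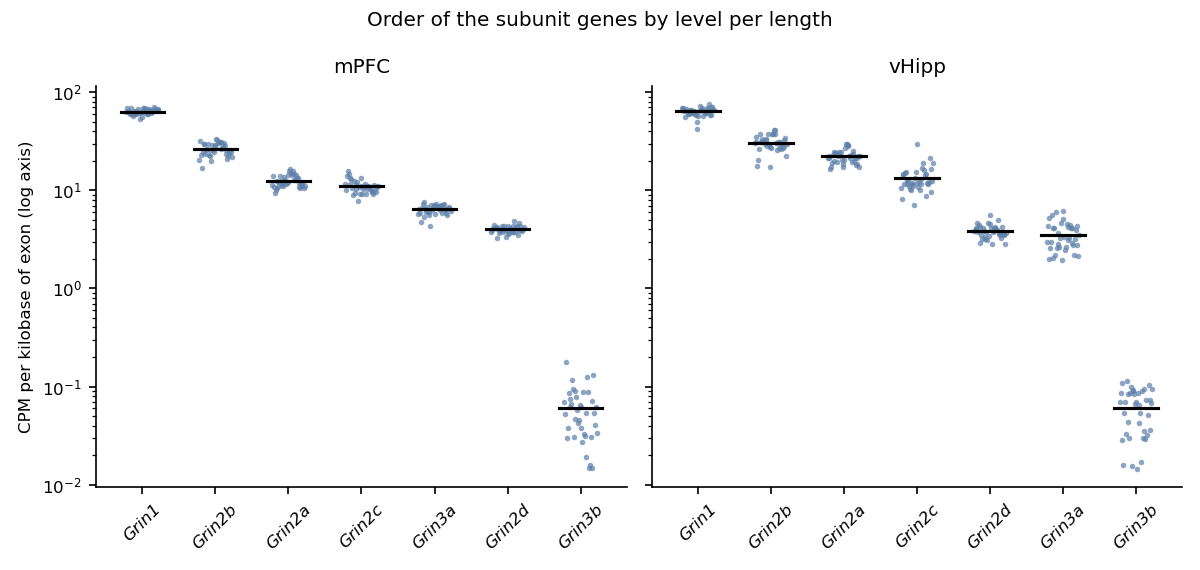
CPM per kilobase of exon (log axis) of the 7 subunit genes in each mPFC and vHipp library, ordered by the mean, which is the black line. Grin1 is highest in both regions and Grin3b lowest, and 1 vHipp library with no Grin3b count is not drawn.

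Other genes share bases with the members. Grin1os runs antisense within Grin1, with a median of 0.589 CPM in the mPFC. Kdelr1 overlaps Grin2d on the other strand at 46.9 CPM, and Tmem259 overlaps Grin3b on the other strand at 90.9 CPM. The libraries were made with a kit that keeps strand, and whether counting used it is not given in the sources used here. The Grin3b values were far below those of Tmem259, and how many of the Grin3b counts came from its own transcripts was not tested.

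The comparison between regions asked where each subunit is more abundant. The means over the 4 groups were compared over all 79 libraries with edgeR's quasi-likelihood test and Benjamini-Hochberg adjustment over 31534 genes, and a difference was called at an adjusted p under 0.05. Grin3a was higher in the mPFC, and Grin2a, Grin2b and Grin2c were higher in the vHipp. The fit took both libraries of a mouse as independent, and with the mouse number as a replicate block the same members were called. These 4 of 7 members stand beside 48.9% of all genes tested, so a difference between the regions was common among all genes.

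Grin1, the subunit needed in every receptor, did not pass between the regions. It ranged from 522 to 694 CPM in the mPFC (median 618) and from 414 to 733 CPM in the vHipp (median 629), and it was higher in the mPFC in 18 of 39 mice with both regions. The LFC of mPFC minus vHipp was -0.00088 (SE 0.0279, edgeR adjusted p = 1.00), with a 95% interval from -0.06 to 0.05.

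Grin2a, which gives receptors fast decay and joins them late in development, ranged from 167 to 297 CPM in the mPFC (median 217). In the vHipp it ranged from 294 to 536 CPM (median 398). The ranges overlapped only between 294 and 297 CPM, and all 39 mice with both regions had more Grin2a in the vHipp. The LFC of mPFC minus vHipp was -0.83 (SE 0.0473, edgeR adjusted p = 2.67e-27), and in saline-treated CTRL mice alone it was -0.88 (SE 0.0940, adjusted p = 5.89e-13).

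Grin2b, the slower subunit that is prominent in the young forebrain, ranged from 425 to 829.01 CPM in the mPFC (median 646) and from 434 to 1026.7 CPM in the vHipp (median 762). The ranges overlapped over most of their width, and 30 of 39 mice had more Grin2b in the vHipp. The LFC of mPFC minus vHipp was -0.22 (SE 0.0539, edgeR adjusted p = 0.000428). In saline-treated CTRL mice it was -0.26 (SE 0.107) and missed the threshold at an adjusted p of 0.0540, and with the mouse number as a replicate block it was -0.25 and passed (adjusted p = 0.00656).

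Grin2c, linked to astrocytes in the forebrain, ranged from 39.3 to 78.6 CPM in the mPFC (median 54.5) and from 35.5 to 150.7 CPM in the vHipp (median 60.9). The vHipp range enclosed that of the mPFC, and 26 of 39 mice had more Grin2c in the vHipp. The LFC of mPFC minus vHipp was -0.26 (SE 0.0654, edgeR adjusted p = 0.000438). In saline-treated CTRL mice it was -0.03 (SE 0.130, adjusted p = 0.893), so the call over 4 groups was not seen in that group by itself. Astrocyte markers stood beside it, with 1 of 7 higher and 4 of 7 lower in the mPFC and sums of 1282 to 2442 CPM in the mPFC and 1474 to 4332 CPM in the vHipp. Their part in the Grin2c difference was not tested.

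Grin2d, found in interneurons, ranged from 21.7 to 32.2 CPM in the mPFC and from 18.7 to 37.2 CPM in the vHipp. The medians of 26.7 and 25.5 CPM lay close together, and the LFC of 0.07 (SE 0.0391) did not pass (edgeR adjusted p = 0.163).

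Grin3a, whose subunit lowers calcium entry, had the opposite direction to Grin2a. It ranged from 53.8 to 94.2 CPM in the mPFC (median 79.6) and from 24.2 to 74.9 CPM in the vHipp (median 39.8). The ranges overlapped, but within each of 39 mice the mPFC library had more Grin3a. The LFC of mPFC minus vHipp was 0.86 (SE 0.0761, edgeR adjusted p = 5.70e-17), and 0.96 (SE 0.151, adjusted p = 1.89e-07) in saline-treated CTRL mice. Grin3b did not pass, with an LFC of -0.01 (SE 0.182, edgeR adjusted p = 1.00) and a wide 95% interval from -0.36 to 0.35. In saline-treated CTRL mice only Grin2a and Grin3a were called among the 7 members, beside 29.0% of all genes. In bulk tissue, fewer cells of a type and less RNA per cell cannot be told apart.

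**Figure D2:**
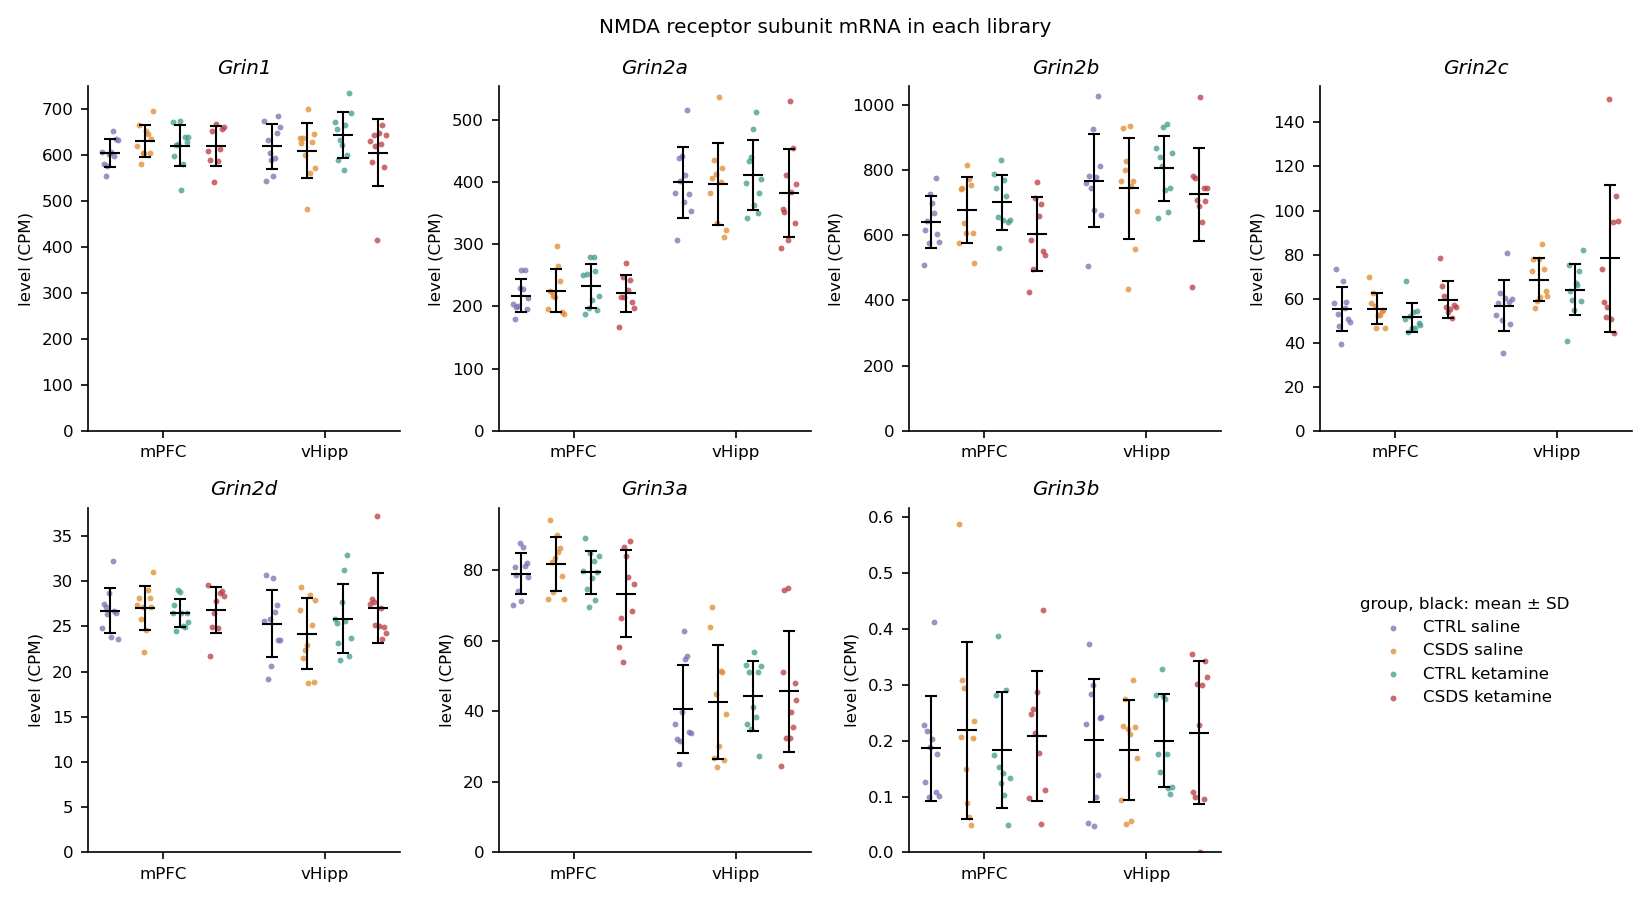
Level in CPM of each subunit gene in each library, by region and by the 4 groups of stress and treatment. Points are libraries and black bars are the mean ± SD of a group (9 or 10 mice), and Grin2a is mostly higher in the vHipp and Grin3a mostly higher in the mPFC, with ranges that overlap between regions for both and between groups within a region.

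The make-up of the GluN2 transcripts was compared within libraries, where scaling between libraries has no part. Of the summed CPM per kb of the 4 GluN2 genes, Grin2b made up 48.8% ± 3.56 (SD, n = 39) in the mPFC and 43.5% ± 4.36 (n = 40) in the vHipp. Grin2a made up 23.2% ± 1.97 and 31.7% ± 2.86. Grin2c held 20.6% ± 3.69 and 19.2% ± 5.51, and Grin2d 7.52% ± 0.970 and 5.58% ± 1.08.

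The log2 ratio of Grin2b to Grin2a per kb, a common measure of receptor maturation, ranged from 0.53 to 1.51 in the mPFC (mean 1.08 ± 0.16) and from -0.09 to 0.72 in the vHipp (mean 0.46 ± 0.16). It was higher in the mPFC in 39 of 39 mice, by 0.62 ± 0.20 (SD of the paired difference). A two-sided permutation test that flipped signs over mice gave p = 2e-05, the smallest it can give, and 0.00018 after Benjamini-Hochberg adjustment over the 18 ratio tests. The same genes drive this and the region differences above, so it adds no independent support. The log2 ratio of Grin1 to the summed GluN2 genes was 0.24 ± 0.16 in the mPFC and -0.13 ± 0.21 in the vHipp, and it too was higher in the mPFC in 39 of 39 mice. Its sign depends on the lengths used, and only the difference between regions is read here.

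**Figure D3:**
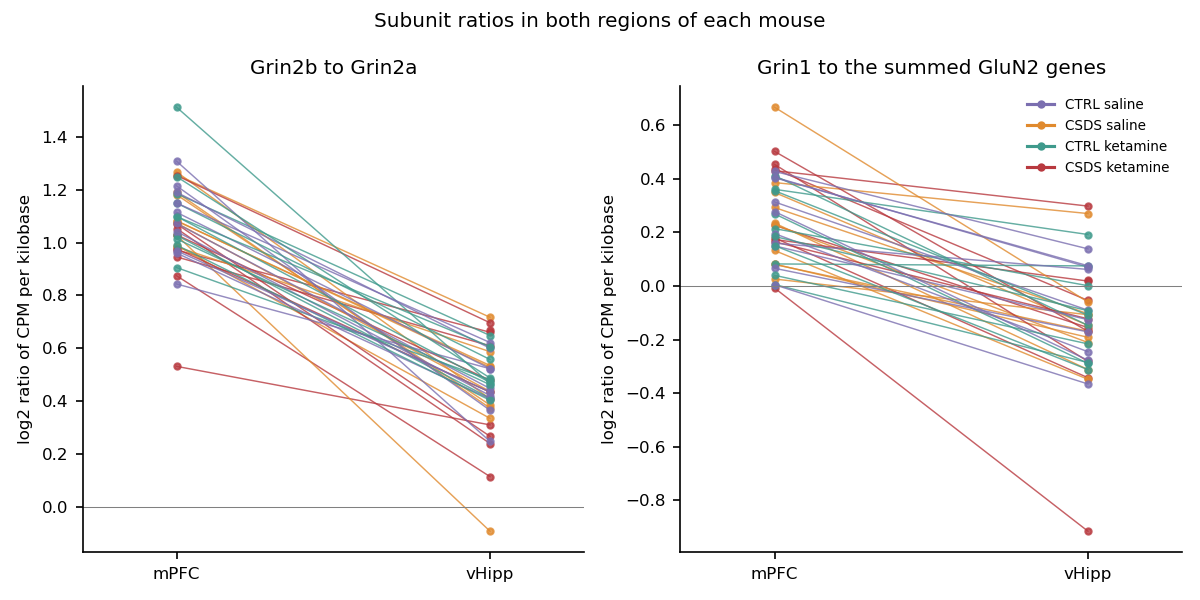
Log2 ratio of CPM per kilobase of Grin2b to Grin2a and of Grin1 to the summed GluN2 genes, in the mPFC and the vHipp, with a line for each mouse coloured by group. Both ratios fall from the mPFC to the vHipp in 39 of 39 mice, and the vHipp of mouse 11 lies lowest in the Grin1 ratio at -0.91.

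The stress and ketamine comparisons asked whether subunit levels differed 7 days after the injection. No member passed an adjusted p under 0.05 in any of the 14 comparisons within a region (edgeR), and neither did any other gene (0% of the 28993 tested in the mPFC, and 0% of the 28991 tested in the vHipp). The counts of genes at an unadjusted p under 0.05 are therefore given as the background. In the mPFC they were 2.94% of genes for stress with saline, 5.80% for stress with ketamine, 3.64% for ketamine in CTRL mice, 4.32% for ketamine in CSDS mice, 5.31% for the interaction, 3.52% for stress over both treatments and 3.07% for ketamine over both stress groups. In the vHipp the same comparisons gave 5.57%, 5.42%, 2.88%, 2.90%, 2.84%, 9.71% and 3.39%. DESeq2 called 14 genes for stress over both treatments in the vHipp, none of them a member, and 0 genes in the other 13.

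In the mPFC, Grin1 of the 4 groups had medians between 603 and 626 CPM, and the 4 simple contrasts had LFCs between -0.02 and 0.06. Grin2a had medians between 209 and 234 CPM and Grin2d between 26.4 and 27.8 CPM. These 3 genes had no unadjusted p under 0.05 in any of the 14 comparisons. Differences of a size that these data could not show remain possible, since the 95% interval of the Grin2a LFC for ketamine in CTRL mice of the mPFC ran from -0.07 to 0.26.

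Grin2b of the mPFC had from 509 to 775 CPM (median 628) in CTRL saline and from 514 to 816 CPM (median 690) in CSDS saline mice. It had from 560 to 829.01 CPM (median 688) in CTRL ketamine and from 425 to 763 CPM (median 586) in CSDS ketamine mice. The 4 ranges overlapped, and the lowest value was that of mouse 1, the library that stood apart. The LFC of CSDS against CTRL was 0.08 (SE 0.0891) with saline and -0.21 (SE 0.0917) with ketamine, where the unadjusted p was 0.0290 and the edgeR adjusted p 0.830. The interaction LFC was -0.29 (SE 0.128, unadjusted p = 0.0303, edgeR adjusted p = 0.898). Without mouse 1 these LFCs were -0.16 (unadjusted p = 0.0745 by edgeR) and -0.25 (unadjusted p = 0.0474). Over all alternative fits the LFC with ketamine ranged from -0.29 to -0.12 and the interaction from -0.39 to -0.17.

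Grin2c of the mPFC had from 44.95 to 68.1 CPM (median 49.8) in CTRL ketamine and from 51.1 to 78.6 CPM (median 56.3) in CSDS ketamine mice. The LFC was 0.21 (SE 0.0907, unadjusted p = 0.0225, edgeR adjusted p = 0.830), and 0.15 without mouse 1, which was the highest library (unadjusted p = 0.0931). Grin2b and Grin2c were thus 2 of 7 members at an unadjusted p under 0.05 in this comparison, where 5.80% of all genes were. With saline the LFC of Grin2c was -0.002 (SE 0.0884).

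Grin3a of the mPFC had from 71.7 to 94.2 CPM (median 82.8) in CSDS saline and from 53.8 to 88.3 CPM (median 76.2) in CSDS ketamine mice. The 4 lowest libraries of the ketamine group, those of mice 6, 1, 3 and 17, lay below every CSDS saline library. The LFC of ketamine in CSDS mice was -0.15 (SE 0.0698, unadjusted p = 0.0405, edgeR adjusted p = 0.993), and -0.12 without mouse 1 (unadjusted p = 0.0905). In CTRL mice the LFC of ketamine was 0.004 (SE 0.0678). Grin3b, near the limit of detection, had LFCs with SEs between 0.364 and 0.377 in the simple mPFC contrasts.

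In the vHipp, Grin2c was the 1 member with an unadjusted p under 0.05 in any comparison. It had from 35.5 to 80.6 CPM (median 58.3) in CTRL saline and from 55.6 to 84.7 CPM (median 67.9) in CSDS saline mice. It had from 41.0 to 82.3 CPM (median 64.8) in CTRL ketamine and from 44.5 to 150.7 CPM (median 65.9) in CSDS ketamine mice. The groups overlapped, and 4 CSDS ketamine libraries, those of mice 14, 20, 17 and 11, lay above every other vHipp library, at 94.8, 95.1, 106.5 and 150.7 CPM. The other 6 libraries of that group had from 44.5 to 73.5 CPM. The same 4 libraries had the 4 highest sums of the vHipp in astrocyte markers (2342, 2467, 2770 and 4332 CPM) and in endothelial markers, and the other 6 had from 1536 to 1776 CPM of astrocyte markers.

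The Grin2c LFC of CSDS against CTRL was 0.29 (SE 0.153) with saline and 0.29 (SE 0.153) with ketamine. The groups of the value with ketamine hold mouse 11, and in the fit without the vHipp libraries of mice 11 and 9 it was 0.15 (SE 0.138, unadjusted p = 0.299 by edgeR). Over both treatments it was 0.29 (SE 0.108, unadjusted p = 0.00983), in a comparison where 9.71% of genes had an unadjusted p under 0.05, and it did not pass over all genes (edgeR adjusted p = 0.385). Without the vHipp libraries of mice 11 and 9 it was 0.21 (SE 0.0978, unadjusted p = 0.0419 by edgeR). With all libraries, no astrocyte marker passed in the stress comparison over both treatments, where 6 of 7 were higher at an unadjusted p under 0.05 and 0 of 7 at an adjusted p under 0.05 (edgeR), with a median LFC of 0.22. Of the microglia markers 5 of 7 were higher at an unadjusted p under 0.05, with a median LFC of 0.26, and of the endothelial markers 4 of 6, with a median of 0.28. Without the vHipp libraries of mice 11 and 9 these counts were 2 of 7, 3 of 7 and 3 of 6, with median LFCs of 0.13, 0.15 and 0.18. The summed astrocyte markers ranged from 1485 to 2015 CPM in CTRL saline, 1474 to 2258 in CSDS saline, 1495 to 2162 in CTRL ketamine and 1536 to 4332 in CSDS ketamine mice. Their medians were 1685, 1929, 1820 and 1685 CPM in the same order, so with ketamine the median was lower in CSDS than in CTRL mice. Their part in the Grin2c values was not tested.

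**Figure D4:**
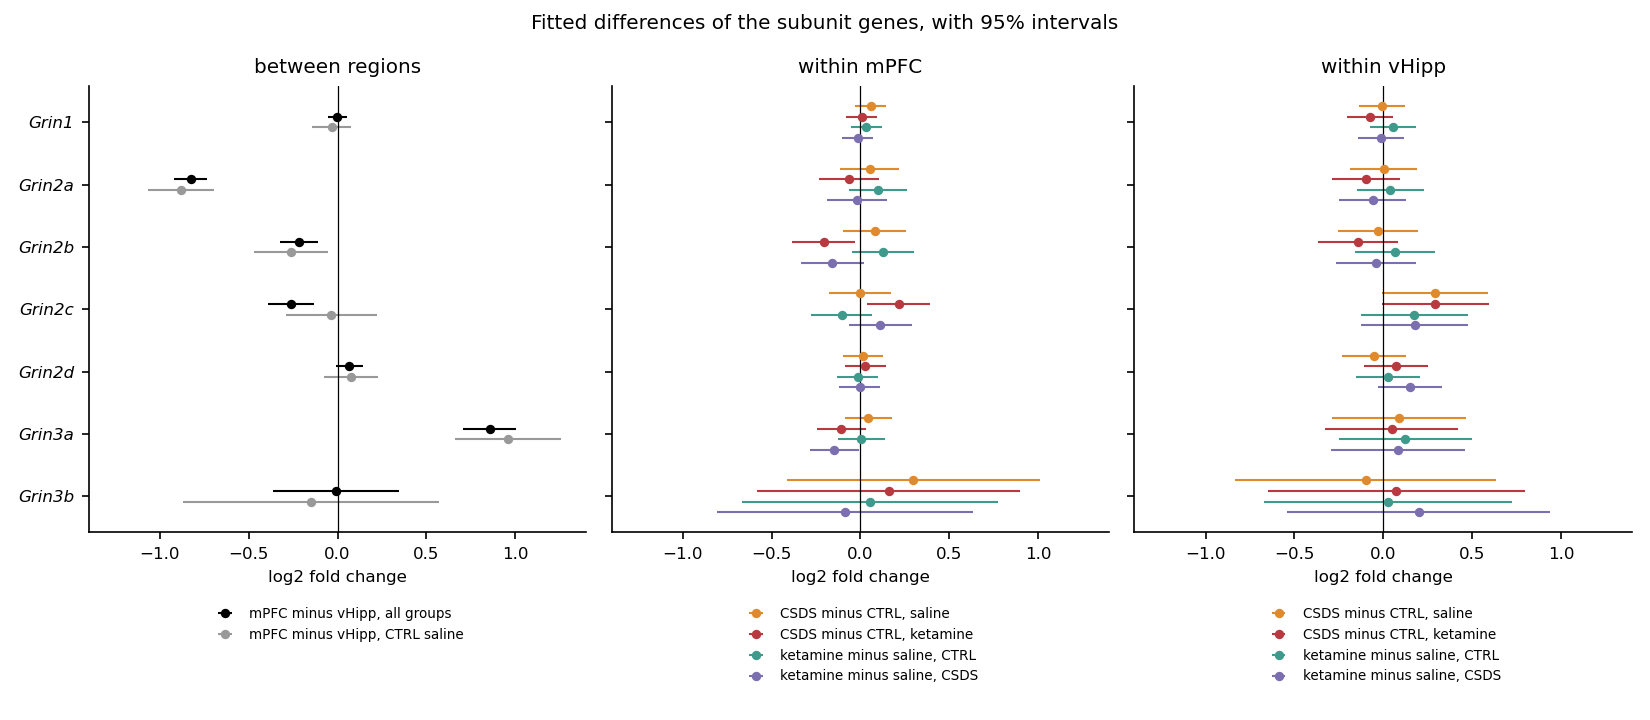
LFC of each subunit gene with its 95% interval, for mPFC minus vHipp over all groups and in CTRL saline mice (left), and for the 4 simple stress and ketamine contrasts in the mPFC (middle) and the vHipp (right). Grin2a and Grin3a lie far from 0 on opposite sides between regions (-0.83 and 0.86), and within regions the intervals cover 0 except those of Grin2b and Grin2c for stress with ketamine and of Grin3a for ketamine in CSDS mice, all in the mPFC.

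The remaining vHipp medians lay between 618 and 644 CPM for Grin1, 370 and 404 CPM for Grin2a, 725 and 825 CPM for Grin2b, 24.1 and 26.1 CPM for Grin2d and 35.2 and 46.1 CPM for Grin3a. Grin3a varied more between mice there than in the mPFC, with an SD of 13.8 CPM on a mean of 43.3 against 8.52 on 78.4. Its LFCs of the 4 simple contrasts lay between 0.05 and 0.12, each with an SE of 0.192. Without the vHipp libraries of mice 11 and 9, Grin3a had an LFC of -0.05 for stress with ketamine and -0.08 for ketamine in CSDS mice, so the sign of both turned. Over all alternative fits its LFC ranged from -0.19 to 0.32 for stress with saline and from -0.11 to 0.37 for ketamine in CSDS mice. Of the simple contrasts, only ketamine in CTRL mice kept its sign for Grin3a in every alternative.

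Stress and ketamine effects were compared between regions in the fit of all libraries. No member passed, and 0% of genes did in either comparison (edgeR). At an unadjusted p under 0.05 there were 0 of 7 members, beside 6.86% of genes for stress and 3.46% for ketamine. With the mouse number as a replicate block it was 1 of 7 for stress, Grin1, with an LFC of 0.10 (SE 0.0465, unadjusted p = 0.0472, edgeR adjusted p = 0.656), in a fit where 2388 of 31497 genes had an unadjusted p under 0.05. Without the 3 libraries that stood apart the Grin1 LFC was 0.03 in the fit with no block. The Grin2c stress effect was lower in the mPFC than in the vHipp by an LFC of -0.18 (SE 0.131, adjusted p = 0.834), so a difference between regions was not detectable.

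Among ratio tests within regions, the log2 ratio of Grin2b to Grin2a in the mPFC was 1.11 ± 0.10 in CSDS saline and 0.97 ± 0.19 in CSDS ketamine mice. The difference of -0.15 had p = 0.0440 in an exact two-sided permutation test (n = 9 and 10) and 0.264 after adjustment over 18 tests. It rested in part on mouse 6, the lowest library of its group at 0.53, without which the difference was -0.09 (exact permutation p = 0.0928, adjusted 0.557). The other 15 within-region ratio differences lay between -0.16 and 0.08.

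Whether a subunit level belonged to the mouse or to the single dissection was asked by comparing both regions of the 39 mice. For each gene, the deviations of log2 CPM from the group mean were correlated between the mPFC and the vHipp. For Grin2a Pearson's r was 0.72 (permutation p = 1e-05, the smallest it can give) and Spearman's rho was 0.65 (permutation p = 2e-05). For Grin2b r was 0.54 (permutation p = 0.000420) and rho 0.55 (permutation p = 0.000380). Adjusted over 11677 genes, the p of r was 0.000731 for Grin2a and 0.00212 for Grin2b.

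Many other genes shared this property. The median r over all 11677 genes was 0.33, 44.7% of genes passed after adjustment, and 3 of 7 members did. Grin2a stood high in that distribution, with 5.03% of genes at an r as high, and Grin2b with 20.6%. Without the 2 mice farthest from the median in the mPFC, r was 0.64 for Grin2a and 0.39 for Grin2b. With the set of mouse numbers removed, r was 0.64 and 0.59. A set is 4 CTRL mice with consecutive numbers and the 4 CSDS mice at the same place in their own numbers, and no label ties a set to a social box.

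Grin1 passed with r = 0.39 (permutation p = 0.0141, adjusted p = 0.0345) but its rho was 0.23 (permutation p = 0.156). Its r was 0.11 without the 2 farthest mice and 0.20 without the mice of the 3 libraries that stood apart, so the relation rested on those mice. Grin2c, Grin2d, Grin3a and Grin3b had r values of 0.19, 0.04, 0.16 and -0.16, and none passed (adjusted p from 0.349 to 0.848). For Grin2c r was 0.36 with the set removed (adjusted p = 0.0694) and 0.29 without the mice of the libraries that stood apart (adjusted p = 0.162). The cause of the shared deviations was not tested, and preparation of both samples of a mouse together cannot be told apart from a property of the mouse.

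Within a region, the members varied with different groups of genes. These are descriptions over 39 mPFC or 40 vHipp libraries, as deviations of log2 CPM from group means, and all points share the library and its scaling. Grin2a and Grin2b went together, with r = 0.73 in the mPFC and 0.81 in the vHipp. Grin2b and Grin3a had r = 0.76 in the mPFC and 0.37 in the vHipp, and Grin2d and Grin3a had 0.17 and 0.63. Grin1 and Grin2b had -0.06 in the mPFC and 0.36 in the vHipp.

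Grin1 varied with the summed excitatory neuron markers, with r = 0.83 (rho 0.80) in the mPFC and 0.69 (rho 0.62) in the vHipp. Without the 2 libraries farthest from the median of these markers r was 0.81 and 0.51. Other lists were nearly as strong against Grin1 in the vHipp, with r = -0.67 for astrocyte, -0.60 for oligodendrocyte precursor and -0.60 for microglia markers. Grin2c varied with the astrocyte markers, with r = 0.86 (rho 0.83) in the vHipp and 0.64 (rho 0.54) in the mPFC, and without the 2 libraries farthest from the median of the markers r was 0.80 and 0.59. Other lists were as close to Grin2c. In the vHipp r was 0.88 with microglia, 0.83 with endothelial and 0.80 with oligodendrocyte precursor markers, and in the mPFC it was 0.72 with microglia markers and highest, at 0.75, with the hippocampal markers, which had -0.002 in the vHipp. In the vHipp, Grin2d and Grin3a varied with inhibitory neuron markers (r = 0.75 and 0.70) and against excitatory ones (r = -0.66 and -0.71). In the mPFC the same relations were weak, with r = -0.13 and -0.12 for the inhibitory and 0.27 and -0.02 for the excitatory markers. Other lists also went with Grin2d and Grin3a in the vHipp. There r was 0.59 and 0.58 with oligodendrocyte precursor markers and 0.54 and 0.45 with astrocyte markers. Grin2a and Grin2b varied with the hippocampal markers in the vHipp (r = 0.66 and 0.80), and had r = -0.17 and 0.13 with them in the mPFC. Zbtb20 and Nr3c2 had the highest medians of that list in the vHipp, at 444 and 207 CPM.

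**Figure D5:**
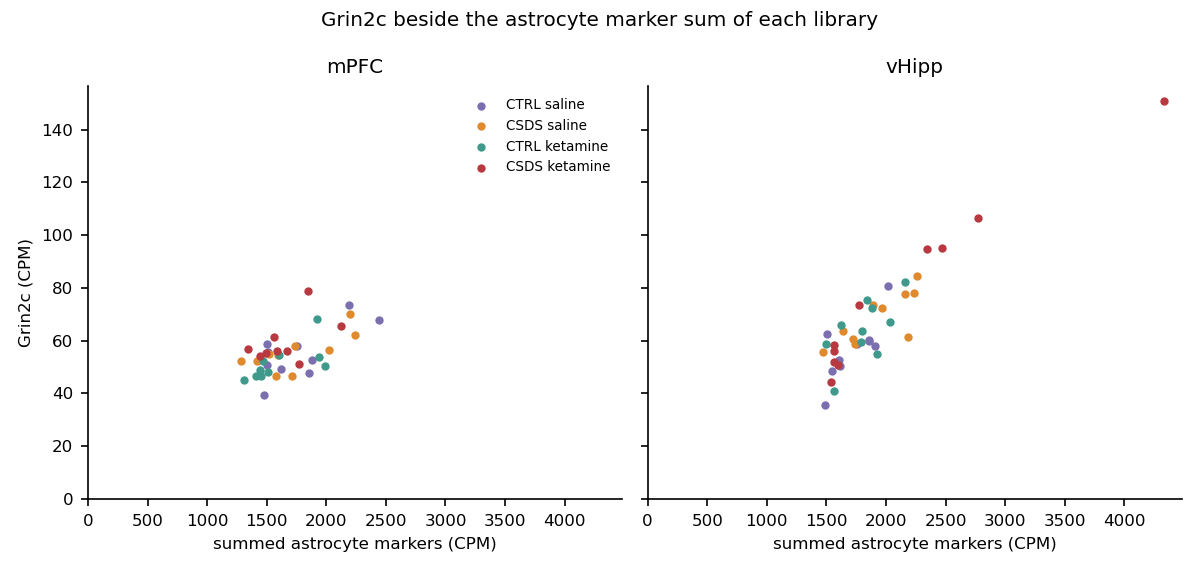
Grin2c level (CPM) against the summed level of 7 astrocyte markers (CPM) in each mPFC and vHipp library, coloured by group. Libraries with more astrocyte marker RNA have more Grin2c, and the vHipp library of mouse 11 lies at the upper end with 150.7 CPM of Grin2c and 4332 CPM of markers.

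The genes most like each member were taken as the 2 with the highest r among genes at a mean of 5 CPM or more, 12063 in the mPFC and 11963 in the vHipp. For Grin1 these were Klhdc3 (r = 0.87) and Pip5k1c (0.85) in the mPFC and Mical2 (0.93) and Kdm4b (0.89) in the vHipp. For Grin2a they included Dyrk1a (0.89) in the mPFC and were Brwd1 (0.84) and Vps13a (0.83) in the vHipp. Grin2b went with Kctd16 (0.91) and Tnr (0.90) in the mPFC and with Ranbp2 (0.95) and Lrrc7 (0.95) in the vHipp.

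Grin2c was most like Btbd17 (0.82) and Bcan (0.80) in the mPFC and Slc9a3r1 (0.94) and Bcan (0.93) in the vHipp, so that Bcan, which encodes the matrix proteoglycan brevican, was named in both regions. Grin2d was most like Zfr2 (0.75) and Jag2 (0.71) in the mPFC and Gng4 (0.79) and Samd14 (0.77) in the vHipp. Grin3a was most like Tenm4 (0.84) and Csmd1 (0.80) in the mPFC and Sik2 (0.86) and Fat1 (0.85) in the vHipp. Grin3b was left out for its low level.

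Genes that work with the receptor were counted from 5 lists. Outside the region comparisons, none of them passed an adjusted p under 0.05 (edgeR). Between regions, 11 of 26 genes of scaffolding and trafficking were higher and 10 lower in the mPFC, beside 48.9% of all genes called. Those with the largest LFC of mPFC minus vHipp were all lower in the mPFC. They were Neto1, an auxiliary subunit of glutamate receptors (-1.79, SE 0.0716), Ptk2b, a calcium-activated tyrosine kinase (-1.30, SE 0.0411), Actn2, an actin cross-linker that binds the receptor tail (-1.08, SE 0.0636), and Nsmf, a synapse-to-nucleus messenger (-0.93, SE 0.0383). The median LFC of the list was 0.03, and that of all genes -0.0003.

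Of 19 kinases and phosphatases that act on the receptor, 5 were higher and 9 lower in the mPFC, beside 48.9% of all genes called. The median LFC of the list was -0.04. Camk2d (1.48, SE 0.0455) and Ptpn5, the phosphatase STEP (0.95, SE 0.0319), were higher in the mPFC, and Prkca (-0.89, SE 0.0678) and Camk2b (-0.88, SE 0.0362) were higher in the vHipp. Of 15 genes that handle the co-agonists glycine and D-serine, 2 were higher and 9 lower in the mPFC, beside the same 48.9%. Their median LFC was -0.16. Shmt1, which makes glycine from serine, had an LFC of -1.28 (SE 0.0806), and Gldc, of the glycine cleavage system, -0.31 (SE 0.0639). Slc6a5, a neuronal glycine transporter (-1.53, SE 0.345), and Dao, which degrades D-serine (-1.02, SE 0.346), passed at mean levels of 0.189 and 0.0676 CPM in the vHipp, near the limit of detection.

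Of 16 genes of glutamate release and uptake, 4 were higher and 6 lower in the mPFC, beside 48.9% of all genes called. The median LFC of the list was -0.04. Slc17a8, a vesicular glutamate transporter (-1.22, SE 0.104), and Slc1a1, a neuronal uptake transporter (-0.41, SE 0.0260), were higher in the vHipp. Gls2, a glutaminase (0.64, SE 0.0451), and Slc38a1, a glutamine transporter (0.40, SE 0.0386), were higher in the mPFC. Of 28 genes of calcium-dependent signalling downstream of the receptor, 14 were higher and 8 lower in the mPFC, beside the same 48.9%. Their median LFC was 0.11. The largest were activity-induced transcription factors, Fos (2.12, SE 0.150), Npas4 (1.83, SE 0.105), Egr1 (1.55, SE 0.0701) and Nr4a1 (1.51, SE 0.0883). Fos had a mean of 8.99 ± 4.81 CPM in the mPFC and 2.04 ± 0.880 in the vHipp.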

How the data were processed

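The authors dissected punches of both regions from cryosections, prepared mRNA libraries with a strand-keeping kit, sequenced them in pairs and deposited raw counts, whole numbers of reads per gene of GRCm38, with no normalization. Base calling software named in the submitters' processing notes was bcl2fastq 2.20.0.422 and CASAVA. Per the study's methods, samples of low RNA integrity and an outlier had been removed. The aligner and counter are not given in the sources used here. The deposited table's gene lengths in bases, a column of the authors, served only to put levels per kilobase.

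The members and gene lists were chosen with earlier results of these data known. Genes with more than 10 counts in total and detected in more than 3 libraries were tested with edgeR 4.0.16 in R 4.3.3 (TMM, quasi-likelihood, 2-sided, Benjamini-Hochberg, threshold 0.05), all groups of a region in 1 fit and both regions in another. DESeq2 1.42.0 was an alternative. The p-values of the fits within a region measure the spread between single libraries of different mice. All mice of a social box had the same stress condition, so they are not independent for stress, and the box was not modelled. The fit of both regions took both libraries of a mouse as independent, except with the mouse number as a replicate block. Ratios were tested by permutation with scipy 1.17.1, exact with fewer than 10 mice in a group and with 100000 resamples elsewhere. A pseudocount of 0.5 CPM was added before deviations were taken. The same-mouse relation was adjusted over all genes of at least 5 CPM in both regions and the members (10000 resamples for each gene that is no member), in place of the members alone as first planned. Libraries with the same mouse number come from the same mouse, which pairs the regions for 39 mice, and over all genes the median correlation of their deviations was 0.33. Named genes were all members, the 2 genes most like each member of at least 1 CPM, and from 5 pathway lists the 4 genes with the largest LFC among those passing between regions and all that pass elsewhere. Scripts were tested on simulated data. Columns of no known sample numbered 0. A sequence and a gene that the rule named are not reported here.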

Additional observations from a re-analysis of the deposited data

Results flagged for a closer look

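In each of 72 groups of values (7 genes and 2 ratios in 8 groups of libraries), the highest and the lowest library were compared with the others by Dixon's criterion, which chance alone meets in about 1 of 20 groups, or 3.60 here. It was met 8 times. In the vHipp of ketamine-treated CSDS mice, mouse 11 was lowest in Grin1 (414 CPM, next 573 CPM), highest in Grin2d (37.2 CPM, next 28.0 CPM) and lowest in the log2 ratio of Grin1 to the GluN2 genes (-0.91, next -0.34). The same library had 1909 CPM of excitatory and 4332 CPM of astrocyte markers, the lowest and the highest of the vHipp, and their part in its subunit levels was not tested. In the vHipp of saline-treated CSDS mice, mouse 9 was lowest in the log2 ratio of Grin2b to Grin2a (-0.0936, next 0.33), in the library with 700.3 CPM of choroid plexus markers, and mouse 18 was highest in the log2 ratio of Grin1 to the GluN2 genes (0.27, next -0.06). In the mPFC, mouse 23 was highest in Grin2c among ketamine-treated CTRL mice (68.1 CPM, next 54.6 CPM). For Grin3b, a gene of a few counts per library, mouse 33 was highest among saline-treated CTRL mice (0.413 CPM, next 0.229 CPM) and mouse 2 among saline-treated CSDS mice (0.588 CPM, next 0.308 CPM) of the mPFC.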

How the results depend on the processing

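The fitted comparisons were repeated with DESeq2, RLE factors, no low-count filter, filterByExpr, a term for the 5 sets of mice, each set left out in turn, only the groups compared, the replicate block, and without the 3 libraries that stood apart. Over 1480 alternative values of the members, 0 calls were lost and 9 were gained. The sign changed under at least 1 alternative for 55 results, 0 of them called. The gained calls were those of Grin2b between regions in saline-treated CTRL mice (LFC from -0.28 to -0.23 over 13 alternatives, adjusted p from 0.00356 to 0.180) and of Grin2d between regions (0.10 without set 3, and 0.11 in the replicate block without the libraries that stood apart). The replicate block, which pairs both regions of a mouse, gave -0.25 for Grin2b in saline-treated CTRL mice (edgeR adjusted p = 0.00656) and changed no other call of a member. In the same-mouse relation, Grin1 had r = 0.20 without the libraries that stood apart (adjusted p = 0.361), 0.32 with the set removed (adjusted p = 0.117) and 0.11 without the 2 farthest mice, and Grin3a had -0.013 without those libraries and -0.015 without the 2 farthest mice. The log2 ratio of Grin2b to Grin2a for ketamine in CSDS mice of the mPFC was -0.09 without mouse 6. The cause was not tested. The rank of mice, the social box and dissection date were not used here. Grin3b, at about 0.2 CPM, has SEs too wide to show even moderate differences.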
